A study of Mus musculus with 6 samples.

Results

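Galectins are small lectins that bind beta-galactosides on glycoproteins and glycolipids. The genes described here are Lgals1, Lgals3, Lgals4, Lgals8 and Lgals9, together with Lgals3bp, which encodes the secreted galectin-3 binding protein and is not itself a galectin. They were chosen by name and make up 6 of the 55401 genes measured. All 6 passed the filter on low values and were among the 16137 genes tested, with at least 82 reads in every library. The material was RNA of 6 cancer cell lines, each a primary culture from a tumour of a C57BL/6 mouse. The tumours had grown in Rag1KO mice for 3 lines (replicates 1, 3 and 7) and in WT mice for the other 3 (replicates 2, 4 and 6). Rag1 is needed to assemble antigen receptors, so mice without it lack mature T and B cells, and the design compares tumour cells grown with and without those cells in the host. The tumour type, the sex of the hosts, the Rag1 allele, passage number and whether a line is 1 clone are not given in the labels, nor is it said that each line came from its own mouse.

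Galectins leave the cell without a signal peptide and cross-link surface glycoproteins that carry N-acetyllactosamine, a galactose and N-acetylglucosamine unit found on branched N-glycans. Outside tumour cells, galectin-1 and galectin-9 are best known for dampening T cell responses, galectin-9 in part through the receptor TIM-3, and galectin-3 for holding receptors in a surface lattice. Inside cells, galectin-3 and galectin-8 gather on lysosomes and endosomes whose membranes have broken and exposed their sugars. LGALS9 and LGALS3BP are known as genes that interferon can raise in human cells.

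The promoter windows of those last 2 genes in the mouse are shown because they hold the interferon-type motifs found among the galectin genes, and because the interferon-stimulated genes differed widely among the lines. Each window runs from 250 bases before to 50 after the start in RefSeq (GRCm38.p6, minus strand, 5′ to 3′), and the motif is in capitals.
Lgals9, chr11:78984875-78985174: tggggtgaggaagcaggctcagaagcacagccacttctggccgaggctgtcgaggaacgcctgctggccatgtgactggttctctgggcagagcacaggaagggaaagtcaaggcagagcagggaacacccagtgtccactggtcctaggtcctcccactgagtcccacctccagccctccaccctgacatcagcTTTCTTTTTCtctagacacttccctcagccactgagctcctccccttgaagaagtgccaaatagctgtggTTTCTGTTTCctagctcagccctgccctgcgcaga
Lgals3bp, chr11:118401910-118402209: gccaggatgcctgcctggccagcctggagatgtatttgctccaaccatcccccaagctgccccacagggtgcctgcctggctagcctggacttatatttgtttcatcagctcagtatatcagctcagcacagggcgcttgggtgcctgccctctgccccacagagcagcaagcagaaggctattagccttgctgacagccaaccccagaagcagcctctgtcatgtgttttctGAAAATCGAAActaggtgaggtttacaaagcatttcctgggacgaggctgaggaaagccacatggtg
The Lgals9 window held 2 matches to GAAANNGAAA, the core of the interferon-stimulated response element, both read here as its reverse complement TTTCNNTTTC. One lay at -55 to -46 (TTTCTTTTTC) and the other at 16 to 25 (TTTCTGTTTC), counted from the start as base 1. The Lgals3bp window held none of these but 1 match to the form with a spacer of 3 bases, GAAANNNGAAA or TTTCNNNTTTC, at -17 to -7 (GAAAATCGAAA). That second form was added after the windows had been read. Matches were searched on both strands, and no matched bases were shared. The windows of Lgals3, Lgals4 and Lgals8 held neither form, none of the 5 windows held TTCNNNGAA, and no window for Lgals1 was used here. Of 32851 promoter windows in the table, 3.44% held the first form, 2.75% the second and 8.3% TTCNNNGAA. Counted by gene, with a match in any window, the shares of 27025 genes were 3.99%, 3.17% and 9.55%. The shares that follow are also by gene. Among 31 interferon-stimulated genes with a window, 17 (54.8%) held the first form, 6 (19.4%) the second and 9 (29.0%) TTCNNNGAA. A match describes letters in the window and not a bound site.

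Values are normalized counts, the authors' reads divided by 1 size factor per library, and libraries held 55409583 to 62998051 reads. The labels were checked first. Rag1 was at 39.3, 126.3 and 177.3 normalized counts in the lines labelled Rag1KO and at 0 in all 3 labelled WT. Leukocyte markers were low in every line (below), so 0 does not go against the WT label. The reads in the lines labelled Rag1KO are what that label alone would not give. Reads outside a deleted part would check nothing, and the deleted part is not given, so the groups are called by their labels throughout. Sex-linked genes also followed the labels in part. The 3 lines labelled Rag1KO had 1438 to 2944 normalized counts of the Y-linked gene Eif2s3y, against 0 in those labelled WT, and it was the 1 gene called among all tested (adjusted p = 0.00525, limma). Xist, the RNA of the inactive X chromosome, was at 1.94 to 15.3 in the lines labelled Rag1KO, and at 59776, 32733 and 5.28 in WT 2, 4 and 6. Kdm5d, also Y-linked, was at 1161 to 1747 in the lines labelled Rag1KO, and at 0, 0 and 1994 in WT 2, 4 and 6. Sex of the cells and host label therefore cannot be fully told apart. The line labelled WT 6 stood apart from the rest: it was the highest of 6 for 27.4% and the lowest for 30.2% of genes tested, and Col1a1, the main fibrillar collagen, was at 206 there, against 478322 to 1051710 in the other 5 lines. Not all fibroblast markers went with Col1a1: of 9, WT 6 was the lowest line for 4 and the highest for 1. Each difference below is therefore followed by its value without WT 6. Markers of leukocytes were low: 9 of 14 had at most 3 reads in every library, Tyrobp, Cd3e, Cd3g and Ms4a1 being at 0 throughout. The filter on low values kept 4 of the 14, so not all were absent. The list summed to 618, 723 and 384 in the lines labelled Rag1KO and 509, 565 and 272 in those labelled WT. Epcam, of epithelium, and Dct, of melanocytes, were also at 0 in all 6 lines, but other markers on their lists were read. The melanocyte list of 7 genes summed to 711, 1770 and 786 in the lines labelled Rag1KO and 675, 2254 and 639 in those labelled WT. The epithelial sums are given below with Lgals4. In bulk RNA, fewer cells of a type and less RNA per cell cannot be told apart.

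Lgals1 was by far the most abundant galectin transcript, Lgals4 was the least abundant member, and the other members lay between them in every line. No member passed the test between host labels (adjusted p of 0.85 or above for all 6, limma with Benjamini-Hochberg adjustment over 16137 genes). Over all genes tested, 0.00620% passed. At an unadjusted p under 0.05 there was no member in limma (4.67% of all genes tested), in edgeR's quasi-likelihood test (4.44%) or in limma-voom (4.54%), and Lgals3 alone in DESeq2 (6.65%), where 0.410% of genes passed after adjustment. Lgals3 and Lgals8 were lower in all 3 lines labelled Rag1KO than in any labelled WT, while the other 4 overlapped. Over all genes tested, 12.1% did not overlap between the labels, 6.49% being lower and 5.60% higher in the lines labelled Rag1KO. With 6 members, the share that did not overlap was read no further.

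Galectin-1, encoded by Lgals1 (ENSMUSG00000068220.6, chromosome 15, 78926725 to 78930465, plus strand, mm10), is a homodimer with 1 sugar-binding domain per chain. Lgals1 had 145673, 180147 and 117154 normalized counts in Rag1KO 1, 3 and 7, against 219866, 125194 and 128474 in WT 2, 4 and 6. The highest line was labelled WT and the lowest Rag1KO, and the groups overlapped. The means were 147658 ± 31543 in lines labelled Rag1KO and 157845 ± 53737 in lines labelled WT (SD, n = 3 each), a log2 difference of -0.07 (SE 0.35, adjusted p = 0.979, limma), or -0.19 without WT 6. The interval of that difference, -0.92 to 0.79, spans ratios of 0.528 to 1.73. Its sign turned when Rag1KO 7 (0.09) or WT 2 (0.20) was left out. This 1 gene took up 0.211% to 0.281% of all reads in the lines labelled Rag1KO and 0.218% to 0.347% in those labelled WT. Per kb of merged exons it ranked 4 among the genes tested. Its largest and smallest values differed 1.88-fold, and 32.8% of genes tested had a smaller SD of log2 values over the 6 lines. WT 6, which stood so far from the other lines in Col1a1, lay within their range for Lgals1.

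Galectin-3 joins 1 sugar-binding domain to a long N-terminal tail through which it forms oligomers. Its gene Lgals3 (ENSMUSG00000050335.17, chromosome 14, 47367751 to 47386160, plus strand) varied most of the 6. Lgals3 was at 14810, 11616 and 3714 normalized counts in Rag1KO 1, 3 and 7, against 22879, 15928 and 31312 in WT 2, 4 and 6. Every line labelled Rag1KO lay below every line labelled WT, Rag1KO 1 lying just under WT 4. The lines labelled Rag1KO averaged 10047 ± 5712 and those labelled WT 23373 ± 7704 (SD, n = 3 each). The fitted log2 difference was -1.39 (SE 0.57, 95% interval -2.78 to 0.01), that is 0.383 times the WT level with an interval of 0.145 to 1.01. It missed the threshold in limma (adjusted p = 0.85), in edgeR's quasi-likelihood test (adjusted p = 0.891) and in DESeq2 (adjusted p = 0.746). The size leaned on the extreme line of each group: the log2 difference was -0.78 without Rag1KO 7 and -1.15 without WT 6. Lgals3 spanned 8.43-fold over the 6 lines, and 78.1% of genes tested varied less.

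The galectin-3 binding protein is a heavily glycosylated secreted scaffold that galectin-3 and galectin-1 can bind. Lgals3bp (ENSMUSG00000033880.11, chromosome 11, 118392751 to 118402092, minus strand) had 22953, 16857 and 27384 normalized counts in Rag1KO 1, 3 and 7, against 19474, 14864 and 51507 in WT 2, 4 and 6. WT 6 alone lay far above the rest, and the other 5 lines of both labels were mixed. The means were 22398 ± 5285 in lines labelled Rag1KO and 28615 ± 19959 in lines labelled WT (SD, n = 3 each). The log2 difference of -0.16 (SE 0.50, interval -1.39 to 1.06, adjusted p = 0.954, limma) turned to 0.37 without WT 6 and to 0.03 without Rag1KO 3. The binding protein and its galectin did not keep a fixed proportion. Per kb, Lgals3bp over Lgals3 was 1.01, 0.947 and 4.81 in Rag1KO 1, 3 and 7, against 0.555, 0.609 and 1.07 in WT 2, 4 and 6. The ratio in Rag1KO 7 stood well above the other 5, where Lgals3 was at its lowest.

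**Figure D1:**
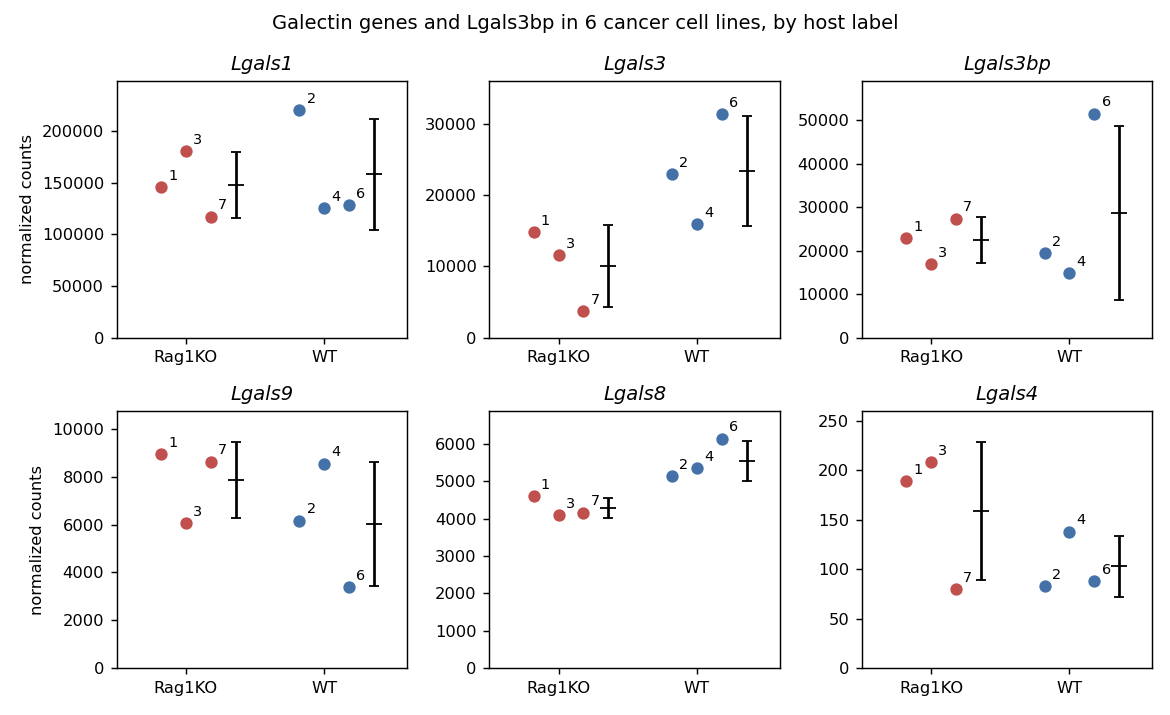
Normalized counts (y axis, linear from 0) of the 6 genes in each line, with Rag1KO-labelled lines in red on the left, WT-labelled lines in blue on the right, replicate numbers beside the points and bars for the mean ± SD (n = 3). Lgals3 and Lgals8 do not overlap between the labels, and WT replicate 6 is highest for Lgals3, Lgals3bp and Lgals8 and lowest for Lgals9.

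Galectin-9, galectin-8 and galectin-4 are tandem-repeat galectins, with 2 different sugar-binding domains on 1 chain. Lgals9 (ENSMUSG00000001123.15, chromosome 11, 78962974 to 78984946, minus strand) had 8942, 6051 and 8635 normalized counts in Rag1KO 1, 3 and 7, against 6169, 8557 and 3370 in WT 2, 4 and 6. WT 6 was the lowest line, and the others fell into an upper trio and a lower pair that each held both labels. Lines labelled Rag1KO averaged 7876 ± 1588 and lines labelled WT 6032 ± 2596 (SD, n = 3 each), with a log2 difference of 0.46 (SE 0.38, interval -0.46 to 1.39, adjusted p = 0.85, limma). Without WT 6 the log2 difference was 0.09. Havcr2, which encodes TIM-3, was at 417, 299 and 61.0 normalized counts in Rag1KO 1, 3 and 7, against 1623, 394 and 14.1 in WT 2, 4 and 6.

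Galectin-8 recruits an autophagy receptor to damaged vesicles in human cells. Lgals8 (ENSMUSG00000057554.13, chromosome 13, 12439415 to 12464944, minus strand) was the steadiest member. It had 4599, 4098 and 4165 normalized counts in Rag1KO 1, 3 and 7, against 5131, 5364 and 6148 in WT 2, 4 and 6. All 3 lines labelled Rag1KO were below all 3 labelled WT, and the lines within a label lay close together. The means were 4287 ± 272 in lines labelled Rag1KO and 5548 ± 533 in lines labelled WT (SD, n = 3 each), 0.774 times the WT level (interval 0.596 to 1.01). On the log2 scale the difference was -0.37 (SE 0.15, interval -0.75 to 0.01, adjusted p = 0.85, limma), or -0.29 without WT 6. DESeq2 gave an adjusted p of 0.784 and edgeR's quasi-likelihood test one of 0.891. The spread among lines was small, with a coefficient of variation of 6.34% in lines labelled Rag1KO and 9.61% in those labelled WT, and 13.0% of genes tested varied less over the 6 lines. Of its 3688 exon bases, 155 are shared with Heatr1 on the opposite strand, and whether counting used strand is not given in the sources used here.

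Galectin-4 is made chiefly by the epithelium of the gut. Lgals4 (ENSMUSG00000053964.17, chromosome 7, 28833854 to 28841708, plus strand) was read at low level in every line, with 189, 209 and 79.4 normalized counts in Rag1KO 1, 3 and 7, against 82.6, 138 and 88.0 in WT 2, 4 and 6. The highest 2 lines and the lowest were labelled Rag1KO. Means were 159 ± 69.5 in lines labelled Rag1KO and 103 ± 30.6 in lines labelled WT (SD, n = 3 each), and the log2 difference was 0.54 (SE 0.52, interval -0.72 to 1.81, adjusted p = 0.85, limma), or 0.45 without WT 6. Epithelial markers were sparse beside it: Krt19 made up most of their sum in every line except WT 6, where it had 1 read. That sum was 6340, 1774 and 1805 in Rag1KO 1, 3 and 7, against 4860, 2950 and 10.6 in WT 2, 4 and 6. Their part in the Lgals4 values was not tested.

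**Figure D2:**
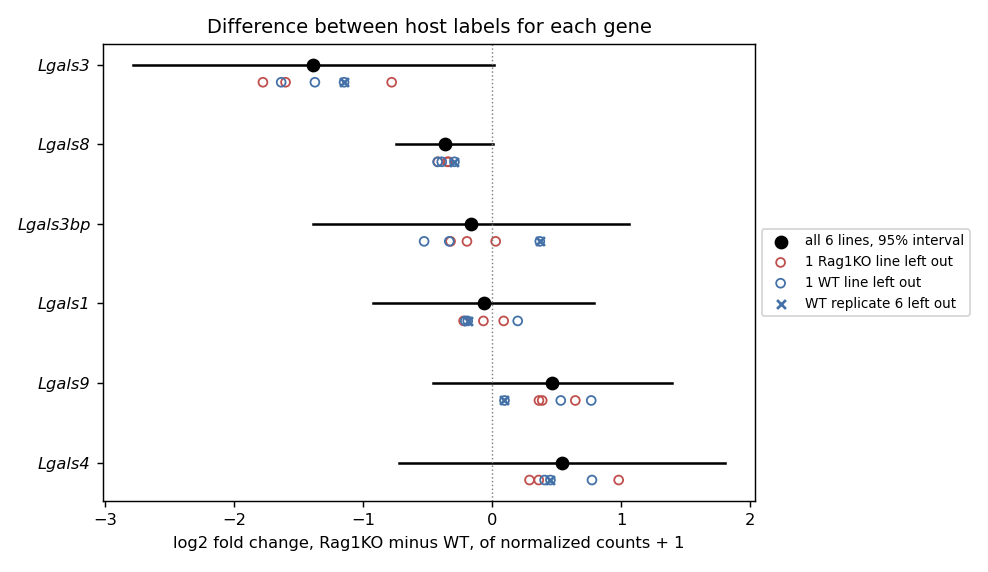
Log2 fold change, Rag1KO minus WT, of each gene (x axis) with its 95% interval from the limma fit in black, and below it the values with 1 line left out (red, a Rag1KO line; blue, a WT line; cross, WT replicate 6). All 6 intervals reach 0, and only the values of Lgals1 and Lgals3bp fall on both sides of 0 when a line is left out.

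Levels of different genes were compared per kb of merged exons, averaged over the 6 lines. Lgals1 was at 169160 normalized counts per kb (range over lines 129739 to 243484), followed by Lgals3 at 8993 (1999 to 16853), Lgals3bp at 8959 (5221 to 18092), Lgals9 at 3254 (1577 to 4184), Lgals8 at 1333 (1111 to 1667) and Lgals4 at 56.5 (34.3 to 90.1). Among the 16137 genes tested these per-kb levels held ranks 4, 326, 327, 925, 2327 and 11846. Neighbours in the order were apart in range except for 2 pairs. Lgals3 and Lgals3bp overlapped, Lgals3 being the higher in 3 of 6 lines. Lgals9 and Lgals8 overlapped because Lgals8 was the higher in WT 6, while Lgals9 was the higher in the other 5. Using the longest transcript in place of merged exons left the order as it was.

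**Figure D3:**
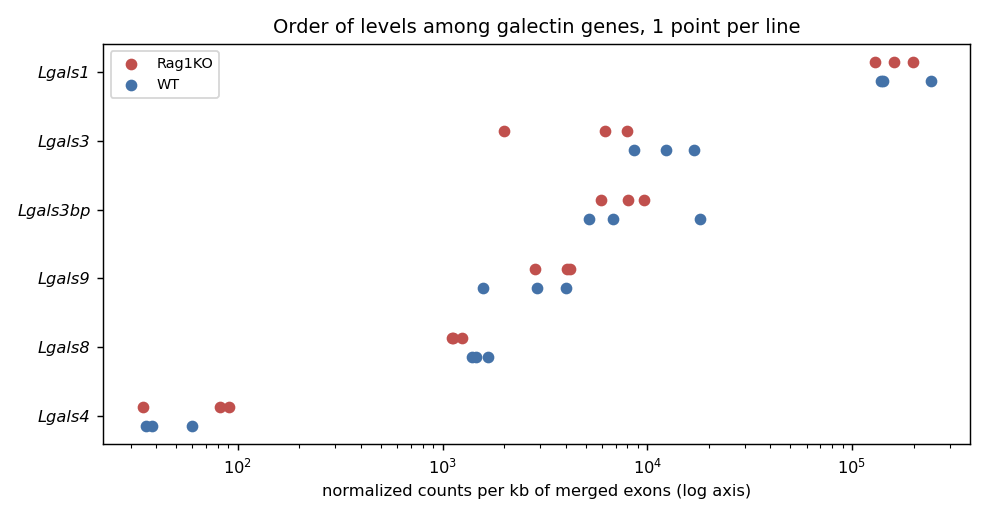
Normalized counts per kb of merged exons (log axis) for each gene, 1 point per line, with lines labelled Rag1KO in red above lines labelled WT in blue. Lgals1 lies at 129739 or above in all 6 lines and Lgals4 at 90.1 or below, and the Lgals3 and Lgals3bp ranges cross.

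Lgals1 made up 88.2%, 92.5% and 88.5% of the summed per-kb level of the 6 genes in Rag1KO 1, 3 and 7, against 91.2%, 87.8% and 78.8% in WT 2, 4 and 6. The lower share in WT 6 went with Lgals3 at 9.34% and Lgals3bp at 10.0% of the sum, the highest share of each among the lines. Within the remaining galectins the balance between Lgals3 and Lgals9 moved most. Their per-kb ratio, Lgals3 over Lgals9, was 1.90, 2.21 and 0.495 in Rag1KO 1, 3 and 7, against 4.27, 2.14 and 10.7 in WT 2, 4 and 6. Rag1KO 7 was the 1 line in which Lgals9 exceeded Lgals3, and WT 4 lay just below Rag1KO 3, so the groups overlapped.

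Other family genes were mostly silent, with 2 exceptions that singled out WT 6. Of 6 listed, 5 had a row of that name (Lgals6 had none) and 2 were tested. Lgals7, the galectin of stratified epithelia, lies near Lgals4 on chromosome 7 (28863853 to 28866284). It had 4260 reads in WT 6 and at most 25 in any other line, or 2.87, 2.32 and 24.2 normalized counts in Rag1KO 1, 3 and 7, against 23.2, 2.90 and 3749 in WT 2, 4 and 6. The log2 difference of -3.36 (SE 2.58, adjusted p = 0.85, limma) was -0.50 without that line. Lgalsl encodes a galectin-related protein that does not bind lactose. It showed the reverse, at 5301, 10653 and 4534 normalized counts in Rag1KO 1, 3 and 7, against 6646, 6986 and 716 in WT 2, 4 and 6 (log2 difference 0.98, SE 0.95, adjusted p = 0.853, limma; -0.10 without WT 6). Lgals2, of the gut, had at most 24 reads, Lgals12, of fat, at most 13, and Grifin, of the lens, at most 1. The annotated Lgals1 pseudogenes had 1 read in all.

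WT 6 was thus the highest of the 6 lines for Lgals3, Lgals3bp, Lgals8 and Lgals7 and the lowest for Lgals9 and Lgalsl. Rag1KO 7 was the lowest for Lgals1, Lgals3 and Lgals4. Fibroblast markers summed to 1107190, 2037500 and 1724670 normalized counts in Rag1KO 1, 3 and 7, against 1215080, 1803240 and 304004 in WT 2, 4 and 6. The sum was thus lowest in the same WT 6, though only 4 of the 9 markers were lowest there. Endothelial markers summed to 241, 299 and 1531 in Rag1KO 1, 3 and 7, against 236, 1049 and 41.4 in WT 2, 4 and 6. The part of these markers in the galectin values was not tested.

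Interferon-stimulated genes, a planned list, were set beside Lgals9 and Lgals3bp, the members whose windows held a match above. For Lgals3bp that match was only to the form added after the windows had been read. The 40 genes averaged 9.61, 6.85 and 10.8 on the log2(normalized count + 1) scale in Rag1KO 1, 3 and 7, against 9.43, 9.02 and 12.1 in WT 2, 4 and 6. WT 6 was the highest line for 33 of them and Rag1KO 3 the lowest for 34. Lgals3bp put the lines in nearly the same order, with WT 6, Rag1KO 7, Rag1KO 1 and WT 2 in places 1 to 4 and only the last pair exchanged. It was thus lowest in WT 4 (14864) and not in Rag1KO 3 (16857). WT 6 was also the highest line for 27.4% of all genes tested. How many of all genes share this order was not worked out. Lgals9 did not follow the order of the list: its lowest value was in WT 6, where the interferon-stimulated genes were highest. Of the 40, 3 were higher and 37 lower in the lines labelled Rag1KO, none passed the test in limma, none had an unadjusted p under 0.05, and none was without overlap. Their median log2 difference was -0.92, against -0.00 for all genes tested, but it was 0.03 without Rag1KO 3 and -0.02 without WT 6. The 4 with the lowest p were Ifit2, Ifit3, Zbp1 and Ifi44. Ifit3, an antiviral protein of the interferon response, had 4184, 467 and 8602 normalized counts in Rag1KO 1, 3 and 7, against 7036, 3217 and 38409 in WT 2, 4 and 6 (log2 difference -1.90, adjusted p = 0.85, limma; -0.89 without WT 6).

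**Figure D4:**
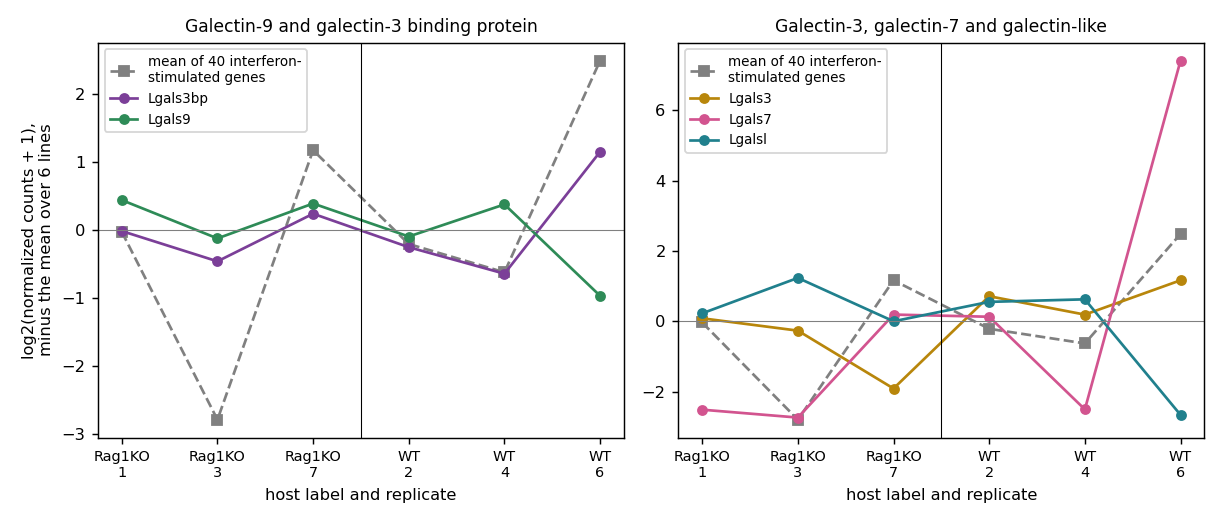
Log2(normalized counts + 1) minus each gene's mean over the 6 lines (y axis) for each line, Rag1KO-labelled lines left of the divider and WT-labelled lines right of it; the dashed grey line in both panels is the mean of 40 interferon-stimulated genes. Lgals3bp is highest in WT replicate 6 with those genes, Lgals9 and Lgalsl are lowest there, and Lgals7 stands far above its other values.

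Galectin ligands depend on enzymes that build or cap N-acetyllactosamine, so lists of these were examined. Over all 16137 genes tested, 754 (4.67%) had an unadjusted p under 0.05 in limma. Of 22 genes for N-glycan branching and lactosamine synthesis, 20 were tested (not B3gnt2 and B3gnt5), 9 being higher and 11 lower in the lines labelled Rag1KO. The median log2 difference was -0.13 (-0.18 without WT 6, but 0.07 without Rag1KO 7), none passed the test, and 2 had an unadjusted p under 0.05. Slc35a2 encodes the carrier that brings UDP-galactose into the Golgi. It had 2183, 2728 and 2513 normalized counts in Rag1KO 1, 3 and 7, against 1756, 1812 and 1267 in WT 2, 4 and 6 (log2 difference 0.63, SE 0.21, adjusted p = 0.85, limma; 0.47 without WT 6). The lines labelled Rag1KO all lay above those labelled WT. Mgat4b, which adds a branch to N-glycans, lay the other way without overlap, at 4602, 6147 and 3646 in Rag1KO 1, 3 and 7, against 6197, 8007 and 15518 in WT 2, 4 and 6 (log2 difference -0.97, SE 0.39, adjusted p = 0.85, limma; -0.59 without WT 6). Its relative Mgat4a was at 87.2, 46.3 and 260 in Rag1KO 1, 3 and 7, against 215, 199 and 7018 in WT 2, 4 and 6, so WT 6 was again far above the rest (log2 difference -2.71, and -1.01 without WT 6). Mgat1, which starts complex N-glycans, did not overlap either, with 6099 to 8159 in lines labelled Rag1KO and 5555 to 5899 in lines labelled WT (log2 difference 0.29, adjusted p = 0.85, limma; 0.26 without WT 6). Mgat5, whose branch carries preferred galectin-3 ligands, had 2611, 1153 and 1281 in Rag1KO 1, 3 and 7, against 2214, 1068 and 4100 in WT 2, 4 and 6, and the groups overlapped.

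Sialic acid on galactose can block galectins, with the alpha-2,6 linkage made by St6gal1 hindering galectin-1 most. Of 13 genes for sialic acid capping, 11 were tested, with 6 higher and 5 lower in the lines labelled Rag1KO, none passing the test and 1 with an unadjusted p under 0.05. Their median log2 difference was 0.00, lying between -0.07 and 0.22 with 1 line left out (-0.04 without WT 6). That 1 was St3gal1, which caps O-glycans: 6396, 4710 and 5537 normalized counts in Rag1KO 1, 3 and 7, against 3825, 3301 and 1276 in WT 2, 4 and 6 (log2 difference 1.12, SE 0.44, adjusted p = 0.85, limma; 0.63 without WT 6). All lines labelled Rag1KO were above those labelled WT. St6gal1 overlapped, at 1358, 944 and 361 in Rag1KO 1, 3 and 7, against 1520, 1161 and 4935 in WT 2, 4 and 6 (log2 difference -1.41, adjusted p = 0.85, limma; -0.78 without WT 6). Its lowest and highest lines, Rag1KO 7 and WT 6, were also those of Lgals3. Over all genes tested, Rag1KO 7 was the lowest line for 15.4% and WT 6 the highest for 27.4%. Slc35a1, the carrier of CMP-sialic acid, and the sialidase Neu1 completed the 4 of lowest p, with log2 differences of -0.31 and -0.46, which were -0.20 and -0.64 without WT 6.

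Of 23 glycoproteins known to bind galectins, 21 were tested, 9 being higher and 12 lower in the lines labelled Rag1KO, none past the test and 2 at an unadjusted p under 0.05. Their median log2 difference was -0.11, but its sign turned without WT 6 (0.05), WT 2 (0.20) or Rag1KO 7 (0.09). Itga6, the laminin-binding integrin alpha 6, was at 2109, 1107 and 888 normalized counts in Rag1KO 1, 3 and 7, against 4810, 2556 and 24695 in WT 2, 4 and 6 (log2 difference -2.40, SE 0.87, adjusted p = 0.85, limma; -1.46 without WT 6). The groups did not overlap, and WT 6 was far above the others. Mcam, an adhesion molecule bound by galectin-1 and galectin-3, was at 197, 993 and 1981 in Rag1KO 1, 3 and 7, against 24.2, 212 and 12.3 in WT 2, 4 and 6 (log2 difference 4.14, SE 1.31, adjusted p = 0.85, limma; 3.32 without WT 6). Rag1KO 1 fell just below WT 4. Lamp1, the abundant lysosomal membrane glycoprotein, had 68563, 48587 and 48308 in Rag1KO 1, 3 and 7, against 75464, 74464 and 73769 in WT 2, 4 and 6, with no overlap (log2 difference -0.46, adjusted p = 0.85, limma, and also -0.46 without WT 6). Itga3, a partner of the same integrin beta chain as Itga6, overlapped, with a log2 difference of -1.58, or -0.86 without WT 6. Of the leukocyte receptors on the list, Cd7 was at 0 in every line and Ptprc, which encodes CD45, was at most 3.83 normalized counts. Lag3, another immune receptor named as a galectin-3 ligand, was at 97.7, 82.3 and 53.3 in Rag1KO 1, 3 and 7, against 80.6, 40.6 and 12.3 in WT 2, 4 and 6.

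The last list held 16 genes of the response to damaged membranes, the setting in which galectin-3 and galectin-8 act inside cells. Of these 15 were tested, 9 being higher and 6 lower in the lines labelled Rag1KO. None was past the test, and 1, Lamtor1, had an unadjusted p under 0.05 in limma. The median log2 difference of the 15 was 0.09, but its sign turned without WT 6 (-0.12), Rag1KO 3 (-0.06) or Rag1KO 1 (-0.01). Lamtor1, part of the complex that holds mTORC1 at the lysosome, had 3990, 4739 and 4565 normalized counts in Rag1KO 1, 3 and 7, against 5662, 6575 and 6192 in WT 2, 4 and 6 (log2 difference -0.47, SE 0.16, adjusted p = 0.85, limma, and also -0.47 without WT 6). The groups did not overlap. Sqstm1, the autophagy receptor p62, had 25757, 45561 and 23459 in Rag1KO 1, 3 and 7, against 52527, 43073 and 100886 in WT 2, 4 and 6 (log2 difference -1.02, adjusted p = 0.85, limma; -0.66 without WT 6), and Rag1KO 3 lay above WT 4. The autophagy receptor Optn and the autophagosome protein Map1lc3a, the other two of lowest p, overlapped with log2 differences of 0.41 and 1.28, which were 0.34 and 0.28 without WT 6.

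**Figure D5:**
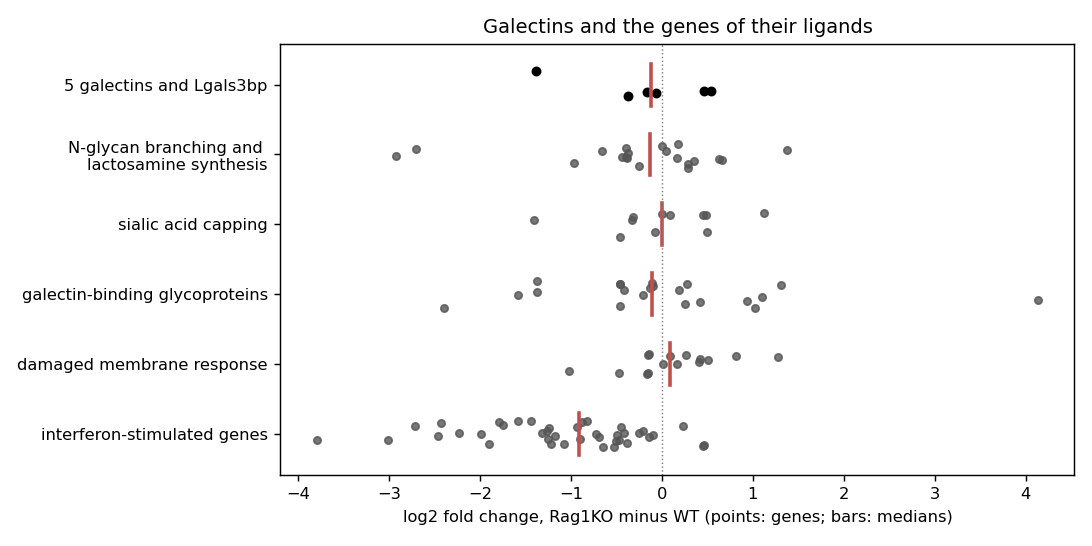
Log2 fold change, Rag1KO minus WT (x axis), of every tested gene (points) of the 6 members and of 5 lists, with red bars at the medians. The medians lie between -0.13 and 0.09 except for the interferon-stimulated genes, at -0.92.

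The genes whose profile over the 6 lines was most like each member were found among 10812 genes by the root-mean-square difference of centred log2 values, a description over 6 libraries that share their depth and line differences. For Lgals1 they were Ago2 (0.063), Exosc4 (0.077) and Mpi (0.083). Lgals8 had the smallest differences, Pcf11 (0.051), Sltm (0.053) and Cluh (0.054), and was also the member that varied least. For Lgals3bp they included Tet2 (0.086) and Mcm8 (0.096), and for Lgals9 Tbc1d25 (0.099), Mmaa (0.101) and Zfp90 (0.106). Lgals4 was nearest to Man2b2 (0.170), Nqo1 (0.216) and Tuft1 (0.218). For Lgals3 the differences were the largest: Hoxb7 (0.236) came first, then Tmem251 (0.326) and Zfp52 (0.332). The measure is not scaled by spread, and the SD of log2 values was 1.06 for Lgals3 against 0.227 for Lgals8. Members are therefore not ranked by how close their neighbours are. Hoxb7, a homeobox factor, was at 464, 297 and 83.3 normalized counts in Rag1KO 1, 3 and 7, against 416, 369 and 690 in WT 2, 4 and 6, so that its groups overlapped where those of Lgals3 did not.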

How the data were processed

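RNA from 6 lines was sequenced by the authors with an Illumina TruSeq Stranded kit, per the labels' protocols, after the tumours had been digested to cells and cultured. Per the submitters' processing notes the tools were STAR 2.7.9a, Trim Galore 0.6.6, DESeq2 and FastQC and the build mm10; the read counter and annotation are not given in the sources used here. The deposited signal values (1 per gene and library) are whole reads divided by 1 size factor per library: after multiplication all values were whole within 0.01 reads, and the factors equalled median-of-ratios factors (largest relative difference 6.85e-12). A count of 0 allows up to 3 reads, or 2.64 to 3.48 normalized counts, for counting error only. Gene coordinates and exon lengths are from GENCODE M21, which held 54349 of the IDs in the same version, and promoters from RefSeq.

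Low genes were removed with filterByExpr (edgeR), applied to the recovered reads. limma 3.58.1 was fitted to log2(value + 1) of the authors' deposited values with a mean-variance trend, two-sided, with Benjamini-Hochberg adjustment at 0.05 and 95% intervals; a pseudocount of 1 understates the differences of low genes. The plan named limma for normalized values and edgeR's quasi-likelihood test for raw counts, and limma was used because the deposited values are normalized. edgeR 4.0.16 and DESeq2 1.42.0 on recovered reads, limma-voom, other scalings, filters and pseudocount, and leaving out each line were alternatives. Groups followed the labels; separate mice are not stated, so the p-values reflect only the spread among these cultures.

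The members and lists were chosen with earlier results of these data known. Named genes are the members, the other galectins, the 4 genes of lowest p in each list, the 3 genes nearest each member in profile (mean log2 CPM of at least 1), Rag1, Xist and Eif2s3y; 1 gene that this rule names is not reported here. Col1a1, Kdm5d, Mgat5, Havcr2, Lag3, Cd7 and Ptprc, the untested B3gnt2 and B3gnt5 and the cell type markers were named after their values were seen.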

Additional observations from a re-analysis of the deposited data

How the results depend on the processing

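No paired analysis was possible because the lines labelled Rag1KO and WT share no replicate numbers. Across 14 alternatives per gene, Lgals3, Lgals4, Lgals8 and Lgals9 kept their direction in all 14, with log2 differences, Rag1KO minus WT, of -1.78 to -0.78, 0.29 to 0.98, -0.42 to -0.29 and 0.09 to 0.77 when 1 line was left out. Lgals1 (-0.22 to 0.20) and Lgals3bp (-0.53 to 0.37) kept it in 12: Lgals1 turned without Rag1KO 7 (0.09) or WT 2 (0.20), and Lgals3bp without Rag1KO 3 (0.03) or WT 6 (0.37). The cause was not tested. No member passed the threshold under any alternative (adjusted p 0.725 to 0.997). The count of genes called over all genes tested was 1 in limma, 0 in edgeR's quasi-likelihood test (0.00%; 717 at an unadjusted p under 0.05), 0 in limma-voom (0.00%; 733), 65 in DESeq2 (0.410% of 15863 genes), and 0 to 5 with 1 line left out, the 5 being without WT 6. Other scalings moved the median of all genes by at most 0.012 on the log2 scale. The median 95% interval, which is not adjusted for the number of genes, spanned a factor of 1.97 either way. For a typical gene, differences under about that size would not reach an unadjusted p under 0.05 in limma. The adjusted threshold used for calls asks for larger differences, and that size was not worked out.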
